A study of Mus musculus with 14 samples.

Results

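The Srebp1 lipogenic genes are 10 genes of fatty acid synthesis: the transcription factor gene Srebf1, the synthesis genes Acly, Acaca, Fasn, Me1 and Elovl6, the desaturase genes Scd1, Scd2 and Fads2, and Thrsp. They were chosen by name as a pathway, and each name was looked up in the count and FPKM tables across all 4 groups. All 10 were found among the 54532 genes of the table, and all 10 were among the 15458 genes that passed the filter on low counts and were tested.

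Srebp1 is made as a membrane-bound precursor that leaves the endoplasmic reticulum and is cleaved in the Golgi, which frees its amino-terminal part to enter the nucleus and switch on genes of fatty acid synthesis. Insulin, feeding and the oxysterol receptors of the liver X receptor family raise its activity, and fasting and polyunsaturated fatty acids lower it. The pathway is best known from liver and fat, and in skeletal muscle Srebf1 messenger RNA also follows feeding and insulin.

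The study asked how c-Myc overexpression in endothelial cells alters the response of mice to a western diet. RNA was sequenced from skeletal muscle of male FVB/N mice, as polyadenylated messenger RNA, in 14 libraries. The labels give 3 libraries each to CT-CTD and CT-WD and 4 each to OE-CTD and OE-WD. EC-Myc OE mice (OE) carry a tetO-MYC transgene, which encodes human c-Myc and is Y-linked, together with a Cdh5-tTA transactivator that restricts it to endothelial cells. Control littermates (CT) carry tetO-MYC and lack the transactivator. All groups were bred on doxycycline, which keeps the transgene off, and were withdrawn from it at 4 to 6 weeks of age. They received Teklad control diet (CTD) or western, high-fat diet (WD), for 20 weeks by the labels and the methods, while the study's text on the transcriptome gives a shorter time. The tissue label is skeletal muscle, and the study's methods name soleus and gastrocnemius without saying which library came from which. The labels name no batch and do not say whether each library is a separate animal, so p-values measure the spread between these libraries. All 4 OE-WD libraries have sample codes with the same last digits, as do OE-CTD 1 to 3, and the codes of CT-CTD 1 and CT-WD 1 lie apart from those of the other 4 CT libraries. What the codes stand for is not given, so whatever libraries with shared digits have in common cannot be told apart from their group, and the number of independent OE animals may be lower than the number of libraries. The study's text gives the larger group size to both western-diet groups and the labels give it to both OE groups, and the labels were used. If the names CT-WD and OE-CTD were exchanged, the comparison of OE-WD with CT-WD would be a diet comparison in OE. The sample codes of the CT-WD libraries adjoin those of CT-CTD, and those of OE-CTD have the form of the OE-WD codes.

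Sequencing depth, as the total count of a library, ranged from 24101226 to 25054855 for CT-CTD and from 21833839 to 26518734 for CT-WD. For OE-CTD it ranged from 22083340 to 28519159 and for OE-WD from 22033140 to 27698046. The level of a single gene is given in TMM-normalized CPM, read counts made comparable between libraries of unequal total. Levels of different genes are compared only in the authors' FPKM, which are also divided by gene length. Differences between groups are log2 fold changes from edgeR's quasi-likelihood test, adjusted over all genes tested in a comparison by the Benjamini-Hochberg method, and a gene was called at an adjusted p under 0.05. The number at an unadjusted p under 0.05 is given beside it. Replicates varied by 17.0% for a typical gene (edgeR's common biological coefficient of variation).

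Muscle markers were abundant in every library. Of 6 skeletal muscle markers all 6 were tested, the most abundant was Acta1 with 30565 FPKM on average, and none was at 0 in any library. CT-CTD 1 stood apart from the other libraries in several lipogenic genes and in fat markers. Its 10 adipocyte markers summed to 579 CPM, against 213 to 442 CPM in the other 13 libraries, with Fabp4 the most abundant by FPKM. The brown adipocyte markers Ucp1 and Cidea summed to 29.1 CPM in CT-CTD 1, 5.72 CPM in OE-WD 1 and between 0.870 and 3.10 CPM elsewhere. Ucp1 had 490 counts in CT-CTD 1, 73 in OE-WD 1, 3 each in CT-CTD 2, OE-CTD 1 and OE-CTD 3, and 0 in the other 9 libraries, so it did not pass the filter and was not tested. For the main results that rest on CT-CTD 1, values without it are therefore given as well. OE-CTD 4 and OE-WD 4 stood apart from the other libraries of their groups over all genes tested. Chi-square per degree of freedom between the counts of a pair of libraries was 7.81 to 15.2 among replicates 1 to 3 of an OE group and 37.0 to 43.0 between these and replicate 4. Among the libraries of a CT group it was 16.8 to 50.8. The 6 muscle markers summed to 101002 CPM in OE-CTD 4 and 100063 CPM in OE-WD 4, against 72847 to 92157 CPM in the other 12 libraries. Counts were also tested without both, a choice made after seeing the data.

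On the FPKM scale, averaged over the 14 libraries, the highest of the 10 genes was Scd1 with 86.4 ± 52.6 (SD), followed by Me1 with 57.3 ± 5.83. Srebf1 had 18.2 ± 4.36 FPKM. Scd2 had 9.12 ± 3.33, Fasn 6.77 ± 9.81, Thrsp 5.78 ± 5.22 and Acly 4.67 ± 1.64 FPKM. The mean of Fasn includes 40.1 FPKM in CT-CTD 1. By the median over the 14 libraries Thrsp (4.67 FPKM) and Acly (4.50 FPKM) lay above Fasn (4.07 FPKM). The lowest were Fads2 with 1.70 ± 0.674, Acaca with 1.29 ± 0.579 and Elovl6 with 0.546 ± 0.484 FPKM. Within 1 SD, Scd1 and Me1 were not separated, nor were Scd2, Fasn, Thrsp and Acly, nor Fads2, Acaca and Elovl6. The range of 1 SD of Srebf1 did not overlap those of its neighbours, Me1 above it and Scd2 below it, but it overlapped that of Fasn, and Srebf1 ranked between 3 and 5 in single libraries. Scd1 and Me1 took the first ranks in every library, and Me1 exceeded Scd1 in CT-CTD 3, CT-WD 2 and CT-WD 3. Scd1 made up between 14.2% of the summed FPKM of the 10 genes in CT-WD 3 and 62.2% in OE-CTD 3.

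**Figure D1:**
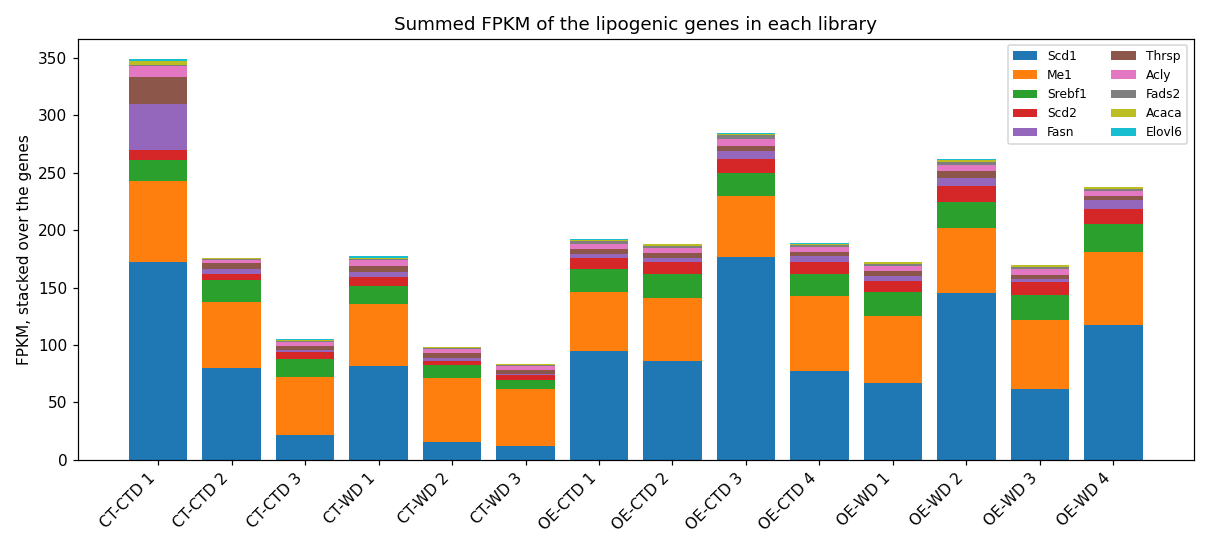
FPKM of the 10 lipogenic genes, stacked, in each of the 14 libraries. The sum runs from 83.7 FPKM in CT-WD 3 to 349 FPKM in CT-CTD 1, and Scd1 and Me1 make up most of it.

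The genes differed widely in how much they varied between libraries. The SD of log2 CPM over the 14 libraries put Scd1 at percentile 99.2 of all genes tested, Elovl6 at 99.1 and Fasn at 99.1. Me1 was at percentile 18.1, with a highest library only 1.41 times its lowest. The same ratio was 33.7 for Fasn, 22.8 for Elovl6, 15.1 for Scd1, 7.93 for Thrsp, 4.66 for Fads2, 3.96 for Acaca, 3.89 for Scd2, 3.26 for Acly and 2.96 for Srebf1. CT-CTD 1 held the highest library of 6 genes, Fasn, Acaca, Acly, Me1, Elovl6 and Thrsp, so the ratios of these genes include it. Fasn had 404 CPM there, against 75.7 CPM in its next library, OE-CTD 3. Elovl6 had 10.99 against 5.93 CPM in OE-WD 2 and Thrsp 47.8 against 12.3 CPM in OE-WD 2. Acaca had 50.3 against 22.6 CPM in OE-WD 4. CT-WD 3 held the lowest of 5, Srebf1, Fasn, Scd1, Scd2 and Me1.

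**Figure D2:**
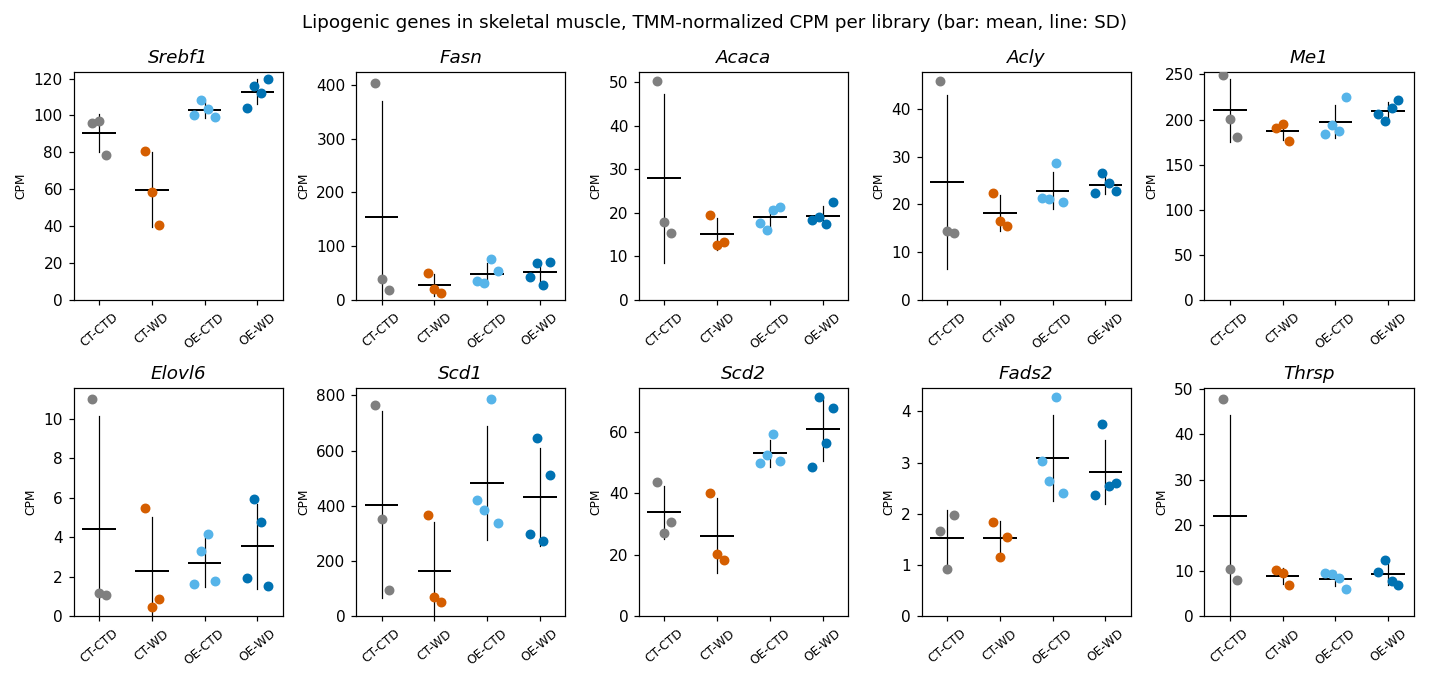
TMM-normalized CPM of the 10 lipogenic genes in each library of the 4 groups, with bars for group means and lines for SD, drawn no lower than 0. Srebf1, Scd2 and Fads2 are higher in all 8 OE libraries than in all 6 CT libraries, while Fasn, Acaca, Acly, Elovl6 and Thrsp each have their highest value in CT-CTD 1.

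Srebf1 (ENSMUSG00000020538, chromosome 11 of GRCm38, 60199089 to 60222581, minus strand) encodes the Srebp1 transcription factor, and its counts sum over its transcript forms. Its level was 96.0, 96.8 and 78.5 CPM for CT-CTD replicates 1 to 3, against 80.6, 58.5 and 40.5 CPM for CT-WD replicates 1 to 3. It was 100.1, 109, 104 and 99.0 CPM for OE-CTD replicates 1 to 4, against 104, 116, 112 and 119.6 CPM for OE-WD replicates 1 to 4. All 8 OE libraries lay above all 6 CT libraries. CT-WD 2 and CT-WD 3 were the lowest, and the CT diet groups overlapped, since CT-WD 1 lay above CT-CTD 3.

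On western diet Srebf1 was higher in OE-WD than in CT-WD, by 0.91 on the log2 scale (standard error 0.162, 95% confidence interval 0.57 to 1.26), with an adjusted p of 0.0282 in edgeR's quasi-likelihood test. Leaving out CT-WD 3 gave the lowest value, 0.70, and leaving out CT-WD 1 the highest, 1.19. The call rested on several libraries, since Srebf1 had an adjusted p in edgeR of 0.0945 without CT-WD 2, 0.0909 without CT-WD 3, 0.0883 without OE-WD 2, 0.0753 without OE-WD 3, 0.0683 without OE-WD 4 and 0.0803 without both OE-CTD 4 and OE-WD 4. Over all alternatives tried it was between 2.52e-05 and 0.238. On control diet Srebf1 had 0.19 on the log2 scale between the genotypes (standard error 0.158, 95% confidence interval -0.15 to 0.52, adjusted p = 0.633 in edgeR), although the libraries did not overlap, and it was 0.093 without CT-CTD 3. With both diets averaged, OE exceeded CT by 0.55 (standard error 0.113, adjusted p = 0.00904 in edgeR). This value passed without each of the 14 libraries in turn but not with replicate numbers as a block (adjusted p = 0.0534, in a range from 5.09e-05 to 0.0534 over all alternatives). For genotype comparisons that block pairs CT and OE libraries by number within a diet. These numbers did not meet the limit for pairing.

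With western diet, Srebf1 in CT moved by -0.59 on the log2 scale (standard error 0.170, unadjusted p = 0.00311), which did not pass the adjusted level (0.471 in edgeR). With replicate numbers as pairs within CT and within OE, in a fit of all 14 libraries, it was -0.64 with an adjusted p of 0.0673. Without CT-WD 1 Srebf1 was called, at -0.87 with an adjusted p of 0.0158 in edgeR. Without CT-WD 3 it was -0.38 with an adjusted p of 0.886, and over all alternatives the adjusted p was between 0.0158 and 0.981. In OE the diet gave 0.13 (standard error 0.146, adjusted p = 0.99994 in edgeR). The difference between both diet responses, the interaction, was 0.73 on the log2 scale (standard error 0.224, unadjusted p = 0.00516) and did not pass the adjusted level (0.825 in edgeR).

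CT-WD 2 and CT-WD 3, the libraries with the least Srebf1, also stood apart in clock genes of the Bmal1 phase and in fasting genes. The 5 clock genes of the Bmal1 phase, with Nfil3 the most abundant by FPKM, summed to 162 CPM in CT-WD 2 and 306 CPM in CT-WD 3, against 65.5 to 96.3 CPM in the other 12 libraries. Nfil3 alone ran from 9.42 to 122 FPKM over the libraries, and its part in this sum and its correlations was not tested. The 9 clock genes of the opposite, Dbp phase, with Tef the most abundant by FPKM, summed to 703, 784 and 642 CPM in CT-WD 1 to 3, so that CT-WD 1 lay below CT-WD 2, and to 1066 CPM in OE-WD 4, the highest library. The 11 fasting-responsive and atrophy genes summed to 6691 CPM in CT-WD 2 and 6432 CPM in CT-WD 3, against 1998 to 4759 CPM elsewhere, with Pdk4 the most abundant by FPKM. Across the 14 libraries, log2 CPM of Srebf1 had a Pearson correlation of -0.906 with the summed Bmal1-phase genes, 0.822 with the Dbp-phase genes and -0.804 with the fasting genes. After group means were removed these were -0.903, 0.322 and -0.410, so the Dbp-phase and fasting values rested largely on differences between groups. No marker of these lists was at 0 in any library. CT-WD 2 and CT-WD 3 were also highest in the summed glycerolipid synthesis genes, at 1126 and 1280 CPM against 787 to 1014 CPM elsewhere. Their Srebp1 regulators were highest (1944 and 2000 CPM, 1492 to 1871 CPM elsewhere). Their Srebp2 genes were lowest (216 and 213 CPM, 219 to 260 CPM elsewhere). Correlations of Srebf1 with these sums were -0.805, -0.657 and 0.462. After group means were removed these were -0.671, -0.441 and 0.701. Whether time of day or feeding at collection had a part in the Srebf1 result was not tested, and neither is given in the labels. The study's methods describe endpoint blood of both fasted and non-fasted mice, and do not say which state the muscle libraries came from.

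Acly (ENSMUSG00000020917) makes cytosolic acetyl-CoA from citrate, and Acaca (ENSMUSG00000020532) makes malonyl-CoA from it, the committed step of fatty acid synthesis. The CT-CTD libraries had 45.8, 14.4 and 14.02 CPM of Acly and the CT-WD libraries 22.4, 16.4 and 15.5 CPM, in order of replicate. The OE-CTD libraries had 21.4, 21.05, 28.6 and 20.4 CPM and the OE-WD libraries 22.4, 26.5, 24.5 and 22.7 CPM. Acaca had 50.3, 18.0 and 15.4 CPM in CT-CTD 1 to 3 and between 12.7 and 22.6 CPM in the other 11 libraries. CT-CTD 1 was the highest library of both genes, and without it the 4 OE-CTD libraries of Acly lay above both CT-CTD libraries.

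Fasn (ENSMUSG00000025153, chromosome 11, 120805846 to 120824547, minus strand) encodes the fatty acid synthase that builds palmitate. It had 404, 39.1 and 19.3 CPM for CT-CTD replicates 1 to 3, against 50.8, 20.1 and 12.0 CPM for CT-WD replicates 1 to 3. In OE-CTD 1 to 4 it had 34.8, 31.6, 75.7 and 53.2 CPM, and in OE-WD 1 to 4 it had 42.4, 69.4, 27.8 and 70.1 CPM. CT-CTD 1 exceeded every other library, and among the other 13 libraries all groups overlapped.

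The fold changes of Fasn, Acaca and Thrsp against CT-CTD were closer to 0 or reversed without that library. In CT the diet response of Fasn was a log2 value of -2.47 (standard error 0.845, unadjusted p = 0.0102, adjusted p = 0.561 in edgeR), which was -0.080 without CT-CTD 1 and -0.86 without both CT-CTD 1 and CT-WD 1 (standard error 0.488). For Acaca it was -0.88 (standard error 0.327, unadjusted p = 0.0167, adjusted p = 0.595), against -0.15 without CT-CTD 1 and -0.36 without both (unadjusted p = 0.0433). On control diet Fasn in OE against CT had -1.66 (standard error 0.745, unadjusted p = 0.0411, adjusted p = 0.285), which reversed to 0.74 without CT-CTD 1. With no filter on low counts Fasn passed the adjusted level in both, at 0.0102 for CT-WD against CT-CTD, in a range from 0.0102 to 0.987 over all alternatives, and at 0.0291 for OE-CTD against CT-CTD, in a range from 0.0291 to 0.856. Acly went from -0.11 (standard error 0.309, adjusted p = 0.906) to 0.68 without CT-CTD 1, and was then called (adjusted p = 0.0446 in edgeR, between 0.0135 and 1 over all alternatives). The interaction of Fasn was 2.58 (standard error 1.08, unadjusted p = 0.0304, adjusted p = 0.834), 0.18 without CT-CTD 1 and 0.97 without both. The part of the fat in CT-CTD 1 in these values was not tested, and more cells of a type and more RNA per cell cannot be told apart in bulk tissue.

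Me1 (ENSMUSG00000032418), the cytosolic malic enzyme that supplies NADPH, was the steadiest of the genes, between 176 and 249 CPM. Its 4 OE-WD libraries, at 206, 198, 213 and 222 CPM, lay above its CT-WD libraries, at 191, 195 and 176 CPM, and the log2 value was 0.16 (standard error 0.105, adjusted p = 0.468 in edgeR). Elovl6 (ENSMUSG00000041220), which elongates palmitate, was near the limit of detection, with between 10 and 278 counts per library. It was 10.99 CPM in CT-CTD 1, 5.46 CPM in CT-WD 1, 5.93 CPM in OE-WD 2 and between 0.483 and 4.76 CPM in the other 11 libraries, and all groups overlapped.

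Scd1 (ENSMUSG00000037071, chromosome 19, 44394451 to 44407709, minus strand) encodes a stearoyl-CoA desaturase, which makes oleate and palmitoleate. It had 766, 352.1 and 95.3 CPM for CT-CTD replicates 1 to 3, against 367, 67.7 and 52.3 CPM for CT-WD replicates 1 to 3. It had 420.3, 385, 787 and 338 CPM for OE-CTD replicates 1 to 4, against 299, 645, 273 and 510.3 CPM for OE-WD replicates 1 to 4. CT-CTD 3, CT-WD 2 and CT-WD 3 lay below all OE libraries, while the other 3 CT libraries lay within the OE range.

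On western diet Scd1 in OE against CT had a log2 value of 1.41 (standard error 0.671, 95% confidence interval -0.018 to 2.84, unadjusted p = 0.0526), which did not pass the adjusted level (0.302 in edgeR). Without CT-WD 1 it was 2.85 and was called, with an adjusted p of 0.0159 in edgeR, and over all alternatives the adjusted p was between 0.00617 and 0.686. On control diet it was 0.25 (standard error 0.647, adjusted p = 0.898), with a change to 1.10 when CT-CTD 1 was left out, to 0.16 for CT-CTD 2 and to 0.39 for OE-CTD 4. It reversed to -0.21 without CT-CTD 3 and to -0.091 without OE-CTD 3. The diet gave -1.32 in CT (standard error 0.701, adjusted p = 0.758), which was -0.47 without CT-CTD 1 and -2.75 without CT-WD 1, and passed the adjusted level in neither. In OE it gave -0.16 (standard error 0.596, adjusted p = 0.99994). This reversed to 0.18 without OE-CTD 3 and to 0.0064 without OE-WD 3.

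Scd2 (ENSMUSG00000025203, chromosome 19, 44293676 to 44306864, plus strand) is a paralogue of Scd1, 87586 bases away on the same chromosome, and reads of these similar genes may have been shared between them. It had 43.7, 27.2 and 30.7 CPM for CT-CTD replicates 1 to 3, against 40.2, 20.3 and 18.3 CPM for CT-WD replicates 1 to 3. It had 49.8, 52.6, 59.4 and 50.6 CPM for OE-CTD replicates 1 to 4, against 48.8, 71.3, 56.4 and 67.8 CPM for OE-WD replicates 1 to 4. All 8 OE libraries lay above all 6 CT libraries, and each diet pair overlapped.

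Scd2 was higher in OE-WD than in CT-WD by 1.21 on the log2 scale (standard error 0.234, 95% confidence interval 0.71 to 1.71), with an adjusted p of 0.0322 in edgeR's quasi-likelihood test. Without each library in turn the fold change stayed between 1.01 and 1.66. The call for Scd2 was lost in edgeR without CT-WD 2 (adjusted p = 0.135), CT-WD 3 (0.142), OE-CTD 2 (0.0516), OE-WD 2 (0.104), OE-WD 3 (0.0753), OE-WD 4 (0.0875) or both OE-CTD 4 and OE-WD 4 (0.0856), and over all alternatives the adjusted p was between 1.35e-05 and 0.255. On control diet it was 0.65 (standard error 0.230, unadjusted p = 0.0125), which did not pass the adjusted level (0.164 in edgeR). It was called there without CT-WD 1 (0.0299, in a range from 0.00402 to 0.464 over all alternatives). The genotype average of Scd2 over both diets was 0.93 (standard error 0.164, adjusted p = 0.00390 in edgeR), and it passed without each of the 14 libraries in turn. The interaction of Scd2 was 0.56 (standard error 0.322, adjusted p = 0.857), and 0.34 without CT-CTD 1, 1.01 without CT-WD 1, 0.79 without both and 0.36 without CT-WD 3, so the genotype difference was not shown to depend on diet.

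Fads2 (ENSMUSG00000024665, chromosome 19, 10064164 to 10101503, minus strand) encodes the desaturase of the first step from dietary to long-chain polyunsaturated fatty acids. It had low counts, between 22 and 107 per library. Its level was 1.66, 0.920 and 1.99 CPM for CT-CTD replicates 1 to 3, against 1.84, 1.16 and 1.56 CPM for CT-WD replicates 1 to 3. It was 3.03, 2.64, 4.29 and 2.40 CPM for OE-CTD replicates 1 to 4, against 2.37, 3.75, 2.55 and 2.61 CPM for OE-WD replicates 1 to 4. All 8 OE libraries lay above all 6 CT libraries, with a distance from 1.99 to 2.37 CPM between the nearest libraries.

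Over both diets, Fads2 was higher in OE by 0.95 on the log2 scale (standard error 0.207, adjusted p = 0.0116 in edgeR), and it passed without each of the 14 libraries in turn. Within a diet it did not pass the adjusted level. The log2 fold change of Fads2 was 1.02 between OE-CTD and CT-CTD (standard error 0.292, unadjusted p = 0.00322, adjusted p = 0.0828 in edgeR) and 0.88 between OE-WD and CT-WD (standard error 0.293, unadjusted p = 0.00840, adjusted p = 0.149). DESeq2's Wald test called the former (adjusted p = 0.0194, in a range from 0.0194 to 0.311 over all alternatives). The diet gave 0.0039 in CT (standard error 0.318, adjusted p = 0.999), with either sign when single libraries were left out, and -0.13 in OE (standard error 0.256, adjusted p = 0.99994), which reversed to 0.074 without OE-CTD 3. The CT value was -0.25 without CT-CTD 2, -0.16 without CT-WD 1 and -0.0072 without CT-WD 3.

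Thrsp (ENSMUSG00000035686), the thyroid hormone responsive gene, encodes a small protein that promotes fatty acid synthesis in lipogenic tissue. It had 47.8, 10.3 and 7.90 CPM in CT-CTD 1 to 3 and between 6.02 and 12.3 CPM in the other 11 libraries. CT-CTD 1 alone stood apart, and the rest overlapped across groups. Its log2 fold change was -1.40 between OE-CTD and CT-CTD (standard error 0.445, unadjusted p = 0.00635, adjusted p = 0.116 in edgeR) and -1.32 between CT-WD and CT-CTD (standard error 0.485, unadjusted p = 0.0156, adjusted p = 0.595). Without CT-CTD 1 these became -0.14 and -0.057, and without both CT-CTD 1 and CT-WD 1 they were -0.13 and -0.16. With no filter on low counts both passed the adjusted level, at 0.00201 in a range from 0.00201 to 0.837 over all alternatives, and at 0.0471 in a range from 0.0471 to 0.981. The interaction of Thrsp was 1.46 (standard error 0.643, unadjusted p = 0.0373, adjusted p = 0.838), 0.20 without CT-CTD 1 and 0.31 without both.

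The diet comparisons asked how western diet altered the genes in each genotype. In CT, for CT-WD against CT-CTD, 0 of the 10 genes passed the adjusted level in edgeR, where 0% of all genes tested did, and 0 with DESeq2's Wald test, where 0.227% did. At an unadjusted p under 0.05, 4 genes passed, Srebf1, Fasn, Acaca and Thrsp, all lower with western diet, against 7.28% of all genes tested (3.09% lower and 4.19% higher). With replicate numbers as pairs within each genotype 7 passed the unadjusted level, against 11.8% of all genes tested, and 0 the adjusted level. That fit also paired the OE libraries, whose numbers did not meet the limit for pairing. The unadjusted count was 1 without CT-CTD 1, 2 without CT-WD 3 and 7 without either CT-CTD 3 or CT-WD 1, where 8.49%, 5.08%, 5.93% and 12.1% of all genes passed in that order. The adjusted count was 1 without CT-WD 1 (Srebf1), against 0.265%. No gene of the 10 had CT diet groups that did not overlap (0 genes, against 9.63% of all genes tested, 4.47% higher and 5.16% lower). The median log2 fold change of the 10 genes was -0.74, with 9 below 0, against 0.0071 over all genes tested. This median was -0.068 without CT-CTD 1, with 7 genes below 0 and Acly (0.34) and Elovl6 (1.05) also above 0, and -0.47 without both CT-CTD 1 and CT-WD 1, with 9 below 0. In a count added after the data were seen, 8 of the 10 genes were lower with western diet in all 3 CT pairs (Srebf1, Fasn, Acaca, Scd1, Scd2, Me1, Elovl6 and Thrsp) and 0 higher, against 14.9% and 14.3% of all genes tested. Without CT-WD 3 it was -0.46. The 10 adipocyte markers had a median of -0.57 in this comparison, with 1 above 0, and their part in the result was not tested.

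Between OE-WD and OE-CTD, 0 of the 10 genes passed the adjusted level in edgeR or in DESeq2, against 0.00647% of all genes tested, and 0 passed at an unadjusted p under 0.05, against 4.20% (1.93% higher and 2.27% lower). In 0 genes did the libraries not overlap, against 4.08% (1.84% higher and 2.23% lower). The median log2 fold change was 0.094, with 8 genes above 0, against 0.0048 over all genes tested. It was 0.046 without OE-CTD 1, 0.058 without OE-CTD 2, 0.17 without OE-CTD 3 and 0.014 without OE-WD 2. The 95% confidence intervals still allowed sizeable changes, for example -1.43 to 1.11 for Scd1 and -1.38 to 1.59 for Fasn, whereas that of Me1 ran from -0.12 to 0.29.

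For the interaction, 0 of the 10 genes passed the adjusted level in edgeR or in DESeq2, where 0% of all genes tested did in edgeR and 0.0194% in DESeq2. At an unadjusted p under 0.05 in edgeR 3 genes passed, Srebf1, Fasn and Thrsp, against 5.92% of all genes tested (2.57% higher and 3.34% lower). That count was 1, Srebf1, without any one of CT-CTD 1, CT-WD 2, CT-WD 3 or OE-WD 2, against 6.80%, 6.09%, 4.54% and 5.07% of all genes in that order. It was 5 without CT-CTD 3, against 5.20%, and 7 without CT-WD 1, against 10.7%. It was 8 with replicate numbers as a block, against 10.8% of all genes, 6 with no filter on low counts, against 4.95%, and 1 without both OE-CTD 4 and OE-WD 4, against 7.40%. The median was 0.82, with 9 genes above 0, against -0.0057 over all genes tested, and it was 0.18 without CT-CTD 1, with 7 above 0, and 0.59 without both CT-CTD 1 and CT-WD 1, with 8 above 0. The adipocyte markers had a median of 0.68 for the interaction, with 8 of 10 above 0. Averaged over both genotypes, western diet against control diet gave 0 genes at the adjusted level in edgeR and in DESeq2, against 0.00647% of all genes tested in edgeR and 0.142% in DESeq2. All 10 log2 differences were below 0 and their median was -0.25, against 0.0016 over all genes tested. The median reversed to 0.016 without CT-CTD 1, with 6 genes above 0, but was -0.16 without both CT-CTD 1 and CT-WD 1, with 8 below 0. It was -0.41 without either CT-CTD 2 or CT-CTD 3, -0.45 without CT-WD 1 and -0.13 without CT-WD 3. At the unadjusted level 1 gene passed, Fasn, against 5.96% (2.34% lower and 3.62% higher), with a log2 difference of -1.18 (standard error 0.539), which was 0.0094 without CT-CTD 1 and -0.38 without both. That count was 0 without CT-CTD 1, CT-WD 2, CT-WD 3, OE-CTD 3, OE-CTD 4, OE-WD 1 or OE-WD 3, against 7.15%, 6.46%, 5.72%, 5.65%, 6.38%, 5.22% and 5.16% of all genes, 3 without CT-CTD 2, against 4.94% of all genes, and 5 without CT-CTD 3 or CT-WD 1, against 5.65% and 8.90%. It was also 0 without both OE-CTD 4 and OE-WD 4, against 6.19% of all genes. It was 4 with replicate numbers as a block, against 1549 of all 15458 genes. With no filter on low counts it was 5, against 5.56%, and in DESeq2 2, against 6.16%. In 0 genes did all WD libraries stay clear of all CTD libraries, against 0.0582% (0.0453% higher and 0.0129% lower).

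The genotype comparisons asked how endothelial c-Myc overexpression altered the genes on each diet. Between OE-WD and CT-WD, 2 of the 10 genes passed the adjusted level in edgeR, Srebf1 and Scd2, both higher in OE-WD, against 0.725% of all genes tested (0.330% higher and 0.395% lower). The same 2 genes passed in DESeq2, against 3.73% of all genes tested there. At an unadjusted p under 0.05 there were 3 genes, with Fads2 added, against 16.9% (8.44% higher and 8.42% lower). The libraries did not overlap in 4 genes, Srebf1, Scd2, Fads2 and Me1, against 11.6% (6.06% higher and 5.54% lower). All 10 log2 fold changes were above 0 and their median was 0.74, against 0.0056 over all genes tested. It was 1.12 without CT-WD 1 and 0.43 without CT-WD 3, where 9 were above 0. The adjusted count was 0 without CT-WD 2, CT-WD 3, OE-WD 2, OE-WD 3 or OE-WD 4, 1 without OE-CTD 2 and 3 without CT-WD 1. The share of all genes moved with it, from 0.0260% without OE-WD 2 to 0.0974% without OE-WD 4 in the settings with 0, 0.325% without OE-CTD 2 and 9.47% without CT-WD 1. Without both OE-CTD 4 and OE-WD 4 the count was 0, against 0.0326% of all genes. Without both CT-CTD 1 and CT-WD 1 the count was 7, against 10.7%. The unadjusted count was 6 without CT-CTD 1, against 16.7% of all genes, and 5 without CT-WD 1, against 26.0%. The 8 epidermis markers had a median of 0.84 in this comparison, with 8 above 0 and 0 at the unadjusted level. Their part in the result was not tested.

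On control diet, OE-CTD against CT-CTD, 0 of the 10 genes passed the adjusted level in edgeR, against 2.67% of all genes tested (1.57% higher and 1.11% lower), and DESeq2 called 1, Fads2, against 5.27% of all genes tested there. At an unadjusted p under 0.05 in edgeR 4 genes passed, Scd2 and Fads2 with a higher and Fasn and Thrsp with a lower level in OE-CTD, against 15.9% (9.22% higher and 6.70% lower). The libraries did not overlap in 3 genes, Srebf1, Scd2 and Fads2, against 15.5% (8.73% higher and 6.75% lower). The median was -0.10, with 4 genes above 0, against -0.00070 over all genes tested. It reversed to 0.71 without CT-CTD 1, with 9 genes above 0, to 0.18 with replicate numbers as a block, with 6 above 0, and to 0.031 in limma on log2(FPKM + 0.1), with 5 above 0, and was -0.25 without CT-CTD 2, -0.30 without CT-CTD 3 and -0.17 without OE-CTD 3. Leaving out CT-CTD 1 gave 1 call at the adjusted level, Acly, against 2.19% of all genes, and leaving out CT-WD 1 gave 1, Scd2, against 3.89%. Leaving out both gave 2, Acly and Scd2, against 4.88%.

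Averaged over both diets, 3 of the 10 genes passed the adjusted level in edgeR, Srebf1, Scd2 and Fads2, all higher in OE, against 8.49% of all genes tested (5.04% higher and 3.45% lower), and the same 3 in DESeq2, against 12.0% there. The same genes made up the 3 at an unadjusted p under 0.05, against 23.9% (13.1% higher and 10.8% lower). In these 3 genes all OE libraries also stayed clear of all CT libraries, against 1.83% of all genes tested (1.06% higher and 0.770% lower). The median was 0.091, with 6 genes above 0, against -0.0012 over all genes tested. It was 0.70 without CT-CTD 1 and 0.46 without CT-WD 1, with 9 genes above 0 in each, 0.015 without CT-CTD 2, 0.056 without CT-WD 3 and -0.0045 without CT-CTD 3. It was 0.44 with replicate numbers as a block, with 7 above 0, 0.32 in limma on log2(FPKM + 0.1), with 9 above 0, and 0.16 on log2(FPKM + 1), with 8 above 0. The adjusted count was 4 without CT-CTD 1, with Acly added, against 7.95% of all genes, and 4 without CT-WD 1, with Scd1 added, against 15.7%. With replicate numbers as a block it was 2, Scd2 and Fads2, against 2.35%. Without both CT-CTD 1 and CT-WD 1 it was 8, against 17.8%. With no filter on low counts it was 4, with Thrsp added, against 5.74%. The unadjusted count was 7 without CT-CTD 1, against 24.6%. This average shares its libraries with both genotype comparisons within a diet, so it is not separate evidence.

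**Figure D3:**
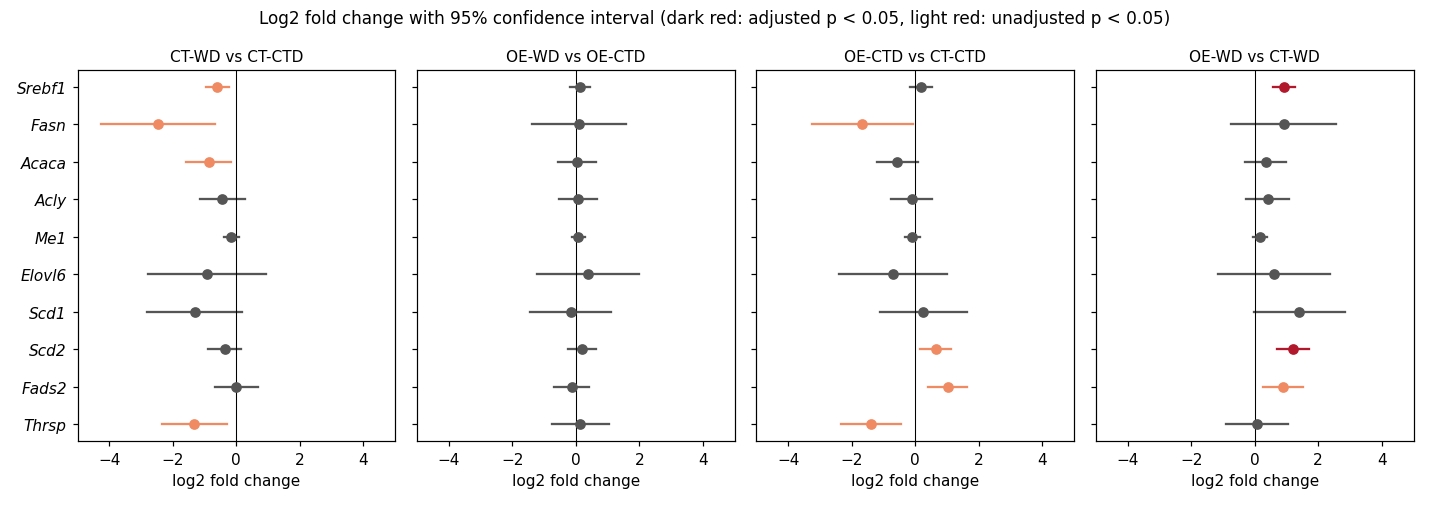
Log2 fold change (points) and 95% confidence interval (lines) of the 10 genes for each diet comparison within a genotype and each genotype comparison within a diet, from edgeR. Srebf1 at 0.91 and Scd2 at 1.21 in OE-WD against CT-WD passed an adjusted p of 0.05, and light red marks genes that passed only the unadjusted level.

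The genes moved together across libraries to differing degrees. Over the 14 libraries, 43 of the 45 pairs had a positive Pearson correlation of log2 CPM, with a median of 0.586, or 0.603 without CT-CTD 1. The highest was Fasn with Acaca, at 0.957, 0.910 without CT-CTD 1 and 0.955 after group means were removed. Srebf1 was closest to Scd2, at 0.896, and it had 0.845 with Scd1. After group means were removed Scd1 was the closest, at 0.771, and Scd2 had 0.764. The correlation of Srebf1 with Thrsp was 0.136. Scd2 with Fads2 had 0.820, which was 0.561 after group means were removed. Several high values rested on CT-CTD 1: Acaca with Thrsp went from 0.779 to -0.0904 and Fasn with Thrsp from 0.759 to 0.208 without it. The libraries of a group share genotype and diet, so these values describe the data and were not tested.

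Among all 12745 genes with a mean of at least 1 CPM, the 5 most like Srebf1 over the 14 libraries were Nfic with a Pearson correlation of 0.950, Slc6a9 with 0.948, Kpna2 with 0.945, 6430571L13Rik with 0.942 and Rhoq with 0.936. None of these was a member of the 10. The 5 most like Fasn were Acaca with 0.957, Slc25a1 with 0.912, Cdo1 with 0.893, Pde3b with 0.881 and Prkar2b with 0.875. Without CT-CTD 1 these ranged from 0.814 for Cdo1 to 0.910 for Acaca. The 5 most like Scd1 were Tmem45b with 0.954, Cidec with 0.939, Plin1 with 0.937, Cebpa with 0.935 and Crtc3 with 0.935, and these changed little without CT-CTD 1, where Tmem45b had 0.948. Cidec and Plin1 are in the adipocyte marker list.

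Promoters were compared because genes of the list moved together across libraries, using 300 bases around each start from RefSeq on GRCm38.p6. The table held 11 promoters of 8 of the 10 genes, and none for Scd1 and Scd2. The letters TCACNCCAC, the core of a sterol regulatory element, were in 0 of the 11 on either strand, against 1.24% of all 32851 promoters, and the E-box CACGTG in 0 of 11, against 7.15%. The CCAAT box CCAAT was in 6 of 11, against 37.4%, and the GC box GGGCGG in 5 of 11, against 35.7%. Shown are the first promoter of Srebf1 (chr11:60222532-60222831, minus strand), that of Fads2 (chr19:10101454-10101753, minus strand) and that of Fasn (chr11:120824498-120824797, minus strand), with CCAAT and GGGCGG or their reverse complements in capitals. Promoters 2 (chr11:60220578-60220877) and 3 (chr11:60210422-60210721) of Srebf1 are not shown. Promoter 2 held 3 GC boxes and 0 CCAAT boxes, and promoter 3 held 2 GC boxes and 1 CCAAT box. A match describes the letters and is not a binding site, and no match says only that these letters are not in this window.
Srebf1: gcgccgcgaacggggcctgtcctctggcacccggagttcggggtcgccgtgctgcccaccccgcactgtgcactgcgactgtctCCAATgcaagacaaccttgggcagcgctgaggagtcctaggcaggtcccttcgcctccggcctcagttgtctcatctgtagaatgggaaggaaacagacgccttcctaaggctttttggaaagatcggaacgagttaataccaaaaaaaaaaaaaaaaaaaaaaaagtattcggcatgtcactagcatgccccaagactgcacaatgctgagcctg
Fads2: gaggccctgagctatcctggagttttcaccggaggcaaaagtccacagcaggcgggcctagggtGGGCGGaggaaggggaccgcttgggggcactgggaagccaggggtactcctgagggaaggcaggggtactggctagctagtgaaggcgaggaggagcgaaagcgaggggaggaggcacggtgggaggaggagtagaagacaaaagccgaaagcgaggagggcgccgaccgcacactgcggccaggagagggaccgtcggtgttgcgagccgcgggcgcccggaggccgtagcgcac
Fasn: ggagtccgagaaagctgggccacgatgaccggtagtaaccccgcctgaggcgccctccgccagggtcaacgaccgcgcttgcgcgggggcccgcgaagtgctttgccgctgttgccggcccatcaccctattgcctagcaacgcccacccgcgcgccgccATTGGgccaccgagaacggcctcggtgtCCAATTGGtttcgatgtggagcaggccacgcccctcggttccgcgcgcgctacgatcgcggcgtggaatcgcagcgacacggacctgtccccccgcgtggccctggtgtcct

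Of 22 regulators of Srebp1, all 22 were tested, and Akt2 was the most abundant by FPKM. On western diet 1 passed the adjusted level in OE against CT, Lpin1, a phosphatidate phosphatase that also acts on Srebp1 in the nucleus, at -0.71 on the log2 scale (standard error 0.149, adjusted p = 0.0407 in edgeR). Lpin1 moved opposite to Srebf1 in that comparison. The adjusted p of Lpin1 ran from 0.00333 to 0.214, highest without CT-WD 3, when 1 library was left out. It was above 0.05 without CT-CTD 3, CT-WD 2, CT-WD 3, OE-CTD 1, OE-CTD 2, OE-CTD 3, OE-WD 2, OE-WD 3 or OE-WD 4. Its genotype average was -0.57 (adjusted p = 0.00468), and it passed in all 14. The median of the 22 was -0.0034 between OE-WD and CT-WD, against 0.0056 over all genes tested. Of all genes tested, 0.725% passed the adjusted level there and 16.9% the unadjusted level. The next smallest unadjusted p there were those of Insig1, which retains the precursor in the endoplasmic reticulum, at 0.63 (standard error 0.264, unadjusted p = 0.0305), and Akt2 at -0.25 (unadjusted p = 0.0530). Between CT-WD and CT-CTD 0 regulators passed the adjusted level in edgeR and 1 the unadjusted level, Lpin1 at 0.57, against 7.28% of all genes tested.

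Of 25 other genes of fatty acid synthesis, elongation and desaturation, 22 were tested and Elovl2, Scd4 and Olah were not. Tecr was the most abundant by FPKM. On western diet 0 passed the adjusted level in edgeR for OE against CT, and 3 higher and 2 lower passed the unadjusted level, with a median of 0.14. Of all genes tested, 16.9% passed that unadjusted level, 8.44% higher and 8.42% lower. The smallest unadjusted p were those of Fads3 at 0.75 (0.00864), Elovl5 at 0.38 (0.0105) and Hacd3 at -0.37 (0.0119). Over both diets 2 were called higher in OE and 1 lower, against 5.04% and 3.45% of all genes tested. Elovl5, an elongase that acts on products of Fads2, had 0.39 (adjusted p = 0.0180), Fads3 0.59 (adjusted p = 0.0498) and Hacd3 -0.31 (adjusted p = 0.0472 in edgeR). Elovl5 passed in 12 of the 14 settings that each left out 1 library, not without CT-CTD 3 or CT-WD 2, with 0.0567 at the highest. Fads3 and Hacd3 passed in 3 of 14 each, with up to 0.132 and 0.145.

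Of 14 glycerolipid synthesis genes, 12 were tested, Mogat1 and Mogat2 were not, and Gpam was the most abundant by FPKM. For OE-WD against CT-WD 1 passed the adjusted level, against 0.725% of all genes tested. This was Lpin1, which is in both lists, and the median of the list was -0.15. Of 22 cholesterol genes of Srebp2, 21 were tested, and Fdft1 was the most abundant by FPKM. Between OE-WD and CT-WD 0 of them passed the adjusted level in edgeR, and 3 higher and 2 lower passed the unadjusted level, with a median of 0.12. The shares of all genes tested at that unadjusted level were 8.44% higher and 8.42% lower. Among the smallest unadjusted p were those of Mvd at 0.65 (0.00114) and Fdft1 at -0.22 (0.0293). Between OE-CTD and CT-CTD Hsd17b7 was called, at -1.25 (standard error 0.209, adjusted p = 0.00704 in edgeR). The genotype averages were for Hsd17b7 -0.87 (adjusted p = 0.00317) and Mvd 0.45 (adjusted p = 0.0240). Hsd17b7 passed in all 14 settings that left out 1 library in both comparisons, and Mvd in 9 of 14, not without CT-CTD 2, CT-WD 2, CT-WD 3, OE-CTD 3 or OE-WD 2, with an adjusted p of up to 0.0675.

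All 11 fasting-responsive fatty acid and atrophy genes were tested. Between OE-WD and CT-WD 3 were called lower, Trim63 at -1.43 and Ucp3 at -1.21 (adjusted p = 0.0276 for each in edgeR) and Pdk4 at -1.08 (adjusted p = 0.0430), and the median was -0.72 against 0.0056 over all genes tested. Of all genes tested, 0.395% were called lower in this comparison. The median of the 10 lipogenic genes in the same comparison was 0.74. Trim63, Ucp3 and Pdk4 did not pass without CT-WD 2, CT-WD 3, OE-WD 2, OE-WD 3 or OE-WD 4, and Pdk4 also not without CT-CTD 2, CT-CTD 3, OE-CTD 1, OE-CTD 2 or OE-CTD 3, with the highest adjusted p, 0.112 for Trim63 and Ucp3 and 0.162 for Pdk4, without CT-WD 3. On control diet Ucp3 was called lower in OE at -1.38 (adjusted p = 0.00575 in edgeR), which passed in all 14, and Fbxo32 at -1.04 (adjusted p = 0.0345), which passed in 7, not without any one of the CT-CTD and OE-CTD libraries. Of all genes tested, 1.11% were called lower on that diet. Averaged over both diets 5 were called lower, against 3.45% of all genes tested: Ucp3, Fbxo32, Pdk4, Trim63 and Foxo1, from -1.30 for Ucp3 to -0.63 for Foxo1. Of these Foxo1 passed in 3 of the 14 settings and the others in all 14. Between CT-WD and CT-CTD 0 passed the adjusted level in edgeR and 5 the unadjusted level, all higher, with a median of 0.52 and Trim63, Klf15 (0.81) and Foxo1 (0.90) at the smallest unadjusted p. Of all genes tested, 4.19% were higher at the unadjusted level in that comparison.

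Marker lists of cell types were read beside the lipogenic genes. Of 9 endothelial markers, with Cdh5 the most abundant by FPKM, 6 were called higher in OE averaged over both diets, Cdh5, Kdr, Tek, Tie1, Emcn and Erg, with a median of 0.36 over the 9. Of all genes tested, 8.49% were called in that average, 5.04% higher in OE. Within a diet 1 was called in each, Cdh5 on western diet at 0.46 (adjusted p = 0.0322 in edgeR) and Tek on control diet at 0.52 (adjusted p = 0.0232). The shares of all genes tested were 0.725% on western and 2.67% on control diet. Cdh5 on western diet did not pass without CT-WD 2, CT-WD 3, OE-WD 2, OE-WD 3 or OE-WD 4, with up to 0.142, and Tek on control diet not without CT-CTD 2, CT-CTD 3, OE-CTD 1, OE-CTD 2 or OE-CTD 3, with up to 0.111. Of the averages, Kdr did not pass without CT-WD 2, CT-WD 3, OE-CTD 1, OE-CTD 2 or OE-WD 2, and Emcn not without CT-CTD 1, CT-WD 2, OE-CTD 1, OE-CTD 2, OE-CTD 3 or OE-WD 2. Their sum was between 333 and 405 CPM in the CT libraries and between 382 and 465 CPM in the OE libraries. Log2 CPM of Scd2 had a Pearson correlation of 0.762 with that sum over the 14 libraries, Fads2 0.764 and Srebf1 0.590, which became 0.452, 0.319 and 0.506 after group means were removed. Of 8 macrophage markers, with Lyz2 the most abundant, 0 passed the adjusted level averaged over both diets in edgeR and 5 the unadjusted level, all higher in OE, with a median of 0.54. Of all genes tested, 23.9% passed the unadjusted level in that average, 13.1% higher in OE. The median was 0.87 on control diet, where 7 passed the unadjusted level, and 0.12 on western diet, where 0 did. The shares of all genes tested at that level were 15.9% on control and 16.9% on western diet. Their sum ran from 42.3 CPM in CT-CTD 3 to 132 CPM in OE-CTD 3. Its Pearson correlation with log2 CPM over the 14 libraries was 0.694 for Scd1, 0.715 for Scd2, 0.454 for Fasn, 0.720 without CT-CTD 1, and 0.493 for Srebf1. After group means were removed these were higher, at 0.905, 0.903, 0.771 and 0.742, while Fads2 went from 0.697 to 0.533. The part of the cell composition of the tissue in the lipogenic genes was not tested.

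Of 10 adipocyte markers, 1 was called averaged over both diets, Lep, higher in OE at 2.25 (adjusted p = 0.0136 in edgeR), and the median was -0.032. The unadjusted level was passed by 1 higher and 2 lower in OE, against 13.1% and 10.8% of all genes tested. Of the 10, 4 were above 0. On control diet the median was -0.21 with 2 above 0, and 1 higher and 1 lower passed the unadjusted level. Between OE-WD and CT-WD 0 passed the adjusted level in edgeR and 1 the unadjusted level, with a median of 0.53. The correlation of log2 CPM with the summed adipocyte markers was 0.786 for Thrsp, 0.667 without CT-CTD 1, and 0.572 for Fasn, 0.167 without CT-CTD 1. For Srebf1 it was 0.0114 and for Scd2 0.0108. Without CT-CTD 1 this correlation also went from 0.598 to 0.274 for Acly and from 0.540 to -0.0289 for Acaca. It went from 0.622 to 0.436 for Elovl6, from 0.405 to 0.274 for Scd1 and from 0.0920 to -0.556 for Me1. With CT-CTD 1 kept and group means removed it was 0.791 for Acly, 0.785 for Thrsp, 0.781 for Elovl6, 0.765 for Scd1 and 0.668 for Fasn. For the others it was 0.591 for Acaca, 0.581 for Scd2, 0.457 for Fads2, 0.410 for Srebf1 and 0.123 for Me1. In the brown adipocyte list, with Cidea the most abundant, 1 of 2 genes was tested and 0 passed the adjusted or the unadjusted level in edgeR in any comparison.

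Apart from the clock genes, the remaining lists gave few calls averaged over both diets in edgeR. Of all genes tested, 8.49% were called in that average and 23.9% passed the unadjusted level. Of 7 slow fibre markers, with Myl3 the most abundant by FPKM, 1 was called, Atp2a2 at 0.41 (adjusted p = 0.00631), and the median was 0.15. Of 8 fast fibre markers, with Tnnt3 the most abundant, 0 were called and 1 passed the unadjusted level, with a median of -0.083. Among 9 Schwann cell markers 0 passed either level, with a median of 0.16 and 8 above 0. After group means were removed the correlation of their sum with log2 CPM was 0.699 for Fads2, 0.602 for Elovl6 and 0.537 for Acly. It was 0.369 for Scd2 and 0.0202 for Srebf1. The part of Schwann cells in these genes was not tested. Among 4 tested blood markers, with Hba-a1 the most abundant, 0 passed either level, with a median of -0.056. Of 8 epidermis markers, with Krt5 the most abundant, 0 were called and 3 passed the unadjusted level, with a median of 0.68. Their sum was 99.5 CPM in CT-WD 1, without which Scd1 was called higher in OE on western diet, against 10.9 and 12.8 CPM in CT-WD 2 and 3, and was highest in OE-WD 3 at 134 CPM. After group means were removed its correlation with log2 CPM was 0.828 for Elovl6, 0.754 for Scd2, 0.616 for Acly, 0.608 for Fads2, 0.590 for Scd1 and 0.530 for Srebf1, and its part in these genes was not tested. Of the 6 skeletal muscle markers 0 passed either level, with a median of -0.041. Of the 9 Dbp-phase clock genes 4 were called higher, Dbp, Nr1d1, Nr1d2 and Ciart, where 8.49% of all genes tested were called. Nr1d2 passed in 1 of the 14 settings that left out 1 library. Of the 5 Bmal1-phase genes 1 was called lower, Nfil3 at -1.22 (adjusted p = 0.0183 in edgeR). Nfil3 passed in all 14 settings and ran from -1.45 to -0.79 over them.

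Clock genes were also called within a diet. Between OE-WD and CT-WD, where Srebf1 and Scd2 were called, 4 Dbp-phase genes were higher in OE, Dbp at 1.32 (adjusted p = 0.00320 in edgeR), Nr1d1 at 1.32 (0.0193), Ciart at 1.88 (0.0282) and Hlf at 0.61 (0.0322). The Bmal1-phase gene Arntl, which encodes Bmal1, was lower at -1.13 (adjusted p = 0.0350). Of all genes tested, 0.330% were called higher and 0.395% lower in OE-WD. Dbp passed without each of the 14 libraries in turn. Nr1d1 did not pass without CT-WD 2, CT-WD 3 or OE-WD 2, with up to 0.0934. Ciart, Hlf and Arntl did not pass without CT-WD 2, CT-WD 3, OE-WD 2, OE-WD 3 or OE-WD 4, and Arntl also not without OE-CTD 1, OE-CTD 2 or OE-CTD 3, with up to 0.112, 0.142 and 0.191. On control diet Nr1d1 at 1.37 (adjusted p = 0.00575) and Ciart at 1.42 (0.0314) were higher in OE, while Per2 of the same list was lower at -0.58 (0.0324). On that diet 1.57% of all genes tested were called higher and 1.11% lower. Nr1d1 passed there in all 14 settings. Ciart did not pass without CT-CTD 1, CT-CTD 2, OE-CTD 1, OE-CTD 2 or OE-CTD 3, nor Per2 without CT-CTD 1, CT-CTD 2, CT-CTD 3, OE-CTD 1 or OE-CTD 2, with up to 0.144 and 0.168.

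Mouse Myc, the endogenous counterpart of the transgene, did not pass the adjusted level, at -0.49 on the log2 scale for OE-WD against CT-WD (standard error 0.304, adjusted p = 0.442 in edgeR) and 0.16 between OE-CTD and CT-CTD (standard error 0.315, adjusted p = 0.863). The tables list mouse genes and have no entry for the human transgene.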

How the data were processed

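Messenger RNA of skeletal muscle was measured in 14 libraries of 4 groups. Per the labels, the authors aligned reads to mm10 with HISAT2 2.0.5 and counted them per gene with featureCounts 1.5.0-p3. The deposited counts are read counts per gene, and the deposited FPKM are counts scaled to library size and gene length. Library totals ran from 21833839 to 28519159 counts, which limits precision for genes with few counts.

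Counts were filtered with filterByExpr, which removed at most 0.0694% of counts, scaled by TMM and fitted with edgeR 4.0.16 (quasi-likelihood test, 1 mean per group, R 4.3.3), with Benjamini-Hochberg adjustment within each of 7 comparisons. Genotype and diet comparisons share control libraries, and no overlap or correlation between them was computed. DESeq2 1.42.0, limma 3.58.1 on log2 FPKM, other scaling and filters, a replicate block and leaving out each library were tried. The scripts were tested on simulated data.

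The labels name no litter or batch, though sample codes fall into sets. The deviations of CT-CTD and CT-WD libraries with the same number correlated at 0.385, 0.123 and 0.203 over 15458 genes, all above the limit of 0.1, so the diet comparison in CT is also given with numbers as pairs, from the fit with a replicate block. The other comparisons did not meet it.

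The 10 genes and the lists were chosen with earlier results of these data known. By rule the text names the 10 genes, of each pathway list the genes at an adjusted p under 0.05 or otherwise the 3 of smallest p in the comparison described, the most abundant gene of each marker list, the 5 genes most like Srebf1, Fasn and Scd1, and Myc. Called markers were named after their values were seen, and a few names under the rule are not given. The lists are regulators of Srebp1, other fatty acid, glycerolipid, Srebp2 cholesterol and fasting genes, and markers of skeletal muscle, slow and fast fibres, adipocytes, brown adipocytes, Schwann cells, endothelial cells, macrophages, epidermis, blood and both clock phases. Reads of the human transgene and Srebf1 transcript forms were left out, since the tables do not hold them.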

Additional observations from a re-analysis of the deposited data

Results flagged for a closer look

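Acly in OE-CTD 3 lay far from the other libraries of its group, with a gap to the nearest library of 0.880 of the group's range, above Dixon's 95% critical value for 4 libraries. Of 20 groups of 4 libraries tested, 1 held such a library, and chance gives about 1 in 20. The diet response differed between CT and OE at an unadjusted p under 0.05 in 3 genes, against 5.92% of all genes tested. The interactions were 0.73 for Srebf1, 2.58 for Fasn and 1.46 for Thrsp on the log2 scale. None of the 3 passed the adjusted level in edgeR. Without CT-CTD 1 the interaction was 0.69 for Srebf1, 0.18 for Fasn and 0.20 for Thrsp.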

How the results depend on the processing

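Each of 29 log2 fold changes, which cover 8 of the 10 genes and leave out Me1 and Elovl6, was recomputed under up to 25 alternatives. They were picked from these data, as values at an unadjusted p under 0.05 in edgeR. Srebf1, Scd1, Scd2 and Fads2 within each diet and genotype, and Acly between OE-CTD and CT-CTD, were added. Most did not pass the adjusted level to begin with. The tally describes these values and not the 10 genes in general. Of the values obtained, 662 kept their direction and their side of the adjusted level, 20 no longer passed, 15 kept their direction and passed only under the alternative, and 21 reversed. Among the reversed values, Acly between OE-CTD and CT-CTD also passed in edgeR without CT-CTD 1 (adjusted p = 0.0446) and without CT-CTD 1 and CT-WD 1 (0.0135). Among counts at the adjusted level 151 of 172 stayed within 1.5 times the count reported, and among counts at the unadjusted level 119 of 172. The 151 include counts of 0 that stayed 0. For OE-WD against OE-CTD, the interaction and the diet average, the adjusted count was 0 in all alternatives. The alternatives without CT-CTD 1 and OE-WD 1, without CT-CTD 1 and CT-WD 1 and without OE-CTD 4 and OE-WD 4 were chosen after seeing the data. The interaction and the averages have no value with only the 2 groups compared. Leaving out libraries lowers the number of samples, and no filter raises the number of genes tested. Otherwise the cause of a change was not tested.

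Between CT-WD and CT-CTD the count at the adjusted level, 0, was 3 with no filter (Srebf1, Fasn and Thrsp), where 0.333% of all genes were called, 1 without CT-CTD 1 and CT-WD 1 (0.198%), and 0 to 1 when each library was left out. Between OE-WD and CT-WD the 2 became 0 with only the 2 groups compared (0.0269% of all genes), 0 with the replicate block (0.00647%), 0 with log2(FPKM + 1) without a filter (0.0215%), 0 without OE-CTD 4 and OE-WD 4 (0.0326%), 7 without CT-CTD 1 and CT-WD 1, where 10.7% of all genes were called, and 0 to 3 when each library was left out. Between OE-CTD and CT-CTD the 0 became 1 with DESeq2 (5.27% of all genes), 4 with no filter (Fasn, Scd2, Thrsp and Fads2, 2.72%), 1 with only the 2 groups compared (4.04%), 2 without CT-CTD 1 and CT-WD 1 (4.88%), and 0 to 1 when each library was left out. Averaged over both diets the 3 became 8 without CT-CTD 1 and CT-WD 1, where 17.8% of all genes were called, 2 with the replicate block (2.35%), and 3 to 4 when each library was left out. With no filter the count was 4 (5.74%), with Thrsp added, whose genotype average with the filter was -0.67. With the replicate block OE-WD against CT-WD had an adjusted p of 0.238 for Srebf1 and 0.255 for Scd2, the highest over all alternatives, with lowest values of 2.52e-05 and 1.35e-05. The genotype average of Srebf1 had 0.0534 with the replicate block, in a range from 5.09e-05 to 0.0534. In these genotype comparisons the block pairs CT and OE libraries whose numbers did not meet the limit for pairing. At the unadjusted level the replicate block gave 7 genes in place of 4 for CT-WD against CT-CTD (11.8% of all genes), 8 in place of 3 for the interaction (10.8%), 4 in place of 1 for the diet average (1549 of 15458 genes) and 2 in place of 4 for OE-CTD against CT-CTD (16.2%). No filter gave 6, 5 and 5 for the interaction, the diet average and the genotype average, against 4.95%, 5.56% and 15.8% of all genes. Limma on log2(FPKM + 1) gave 1, 1 and 2 for CT-WD against CT-CTD, the interaction and OE-CTD against CT-CTD, against 6.56%, 5.65% and 15.2%.

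Fasn between OE-CTD and CT-CTD reversed to 0.74 without CT-CTD 1 and OE-WD 1 and to 0.74 without CT-CTD 1 and CT-WD 1, and ran from -2.18 to 0.74 when each library was left out. The diet average of Fasn reversed to 0.053 without CT-CTD 1 and OE-WD 1 and ran from -1.58 to 0.0094. Acly between OE-CTD and CT-CTD reversed to 0.16 with the replicate block, 0.063 with log2(FPKM + 1), with and without the filter, 0.11 with log2(FPKM + 0.1), 0.68 without CT-CTD 1 and OE-WD 1, and 0.69 without CT-CTD 1 and CT-WD 1, and ran from -0.40 to 0.68. Fads2 between CT-WD and CT-CTD reversed to -0.10 without CT-CTD 1 and CT-WD 1 and ran from -0.25 to 0.24, and between OE-WD and OE-CTD from -0.30 to 0.074. Scd1 ran from -0.42 to 0.18 between OE-WD and OE-CTD and from -0.21 to 1.10 between OE-CTD and CT-CTD. Depth limits Elovl6 and Fads2 most, with as few as 10 and 22 counts in a library.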
